A study of Rattus norvegicus with 28 samples.

Results

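This account covers the orbitofrontal cortex of rats at withdrawal day 35, comparing 4 libraries from rats that had self-administered methamphetamine (meth) with 4 from rats that had self-administered saline. The libraries were chosen by their titles and are 8 of the 28 samples in the series. All rats were Sprague Dawley, underwent intravenous surgery, and were killed straight from the home cage. Age is not given in the sources used here. Each library was made from poly(A) RNA of cortical punches combined from 2 rats, and a replicate is thus 1 such pool, which averages both animals. Rats were trained in separate runs, and no label ties a pool to a run. The titles call this time point long, and the day was taken from the design text. The same dissection at withdrawal day 2, again 4 meth and 4 saline libraries, was used for the estimate of spread and for comparisons between days.

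The orbitofrontal cortex is a frontal region that tracks the value of rewards and of the cues that predict them. Meth is a psychostimulant that raises extracellular dopamine and other monoamines. After drug taking stops, the seeking of meth provoked by drug cues grows over weeks, a phenomenon known as incubation of craving. Late withdrawal, when cue-induced seeking is known to be strong, is therefore a time at which transcript levels in this region are of interest.

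The deposited tables list 26405 Ensembl gene identifiers without names, and the reference table used here could name 0 of them. Named classes such as immediate early genes, receptors or glial markers could not be assigned, nor could the labelled tissue be checked against its markers. Genes are grouped here by their mean level over all 16 orbitofrontal libraries, in CPM. CPM are counts scaled by the total and the TMM factor (described below) of each library. No sequence is shown, because none could be tied to an identifier.

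The 8 libraries were deeply sequenced. Gene counts were 42.38, 42.06, 43.98 and 36.72 M (M, the SI prefix mega) in meth replicates 5 to 8, and 48.47, 32.47, 31.85 and 36.16 M in saline replicates 9 to 12. The meth mean was 41.3 ± 3.16 M and the saline mean 37.2 ± 7.73 M (SD, n = 4 each), with overlapping ranges (exact permutation test, two-sided, p = 0.4). With every library thinned to 31.85 M counts, 17942 to 18045 genes had at least 1 count in meth and 17933 to 18051 in saline libraries (exact permutation p = 0.94). The 10 most abundant genes took 9.91 ± 0.594% of gene counts in meth and 9.95 ± 0.505% in saline libraries (n = 4 each, exact permutation p = 0.89). Of 6 such library measures none passed after Benjamini-Hochberg adjustment (adjusted p = 1 for each). The smallest p that 4 libraries against 4 can give is 0.029.

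Meth and saline rats differed in no gene that passed the test at day 35, 0 of 15413 or 0% (edgeR quasi-likelihood test, Benjamini-Hochberg adjusted p under 0.05). The smallest adjusted p was 0.42. An unadjusted p under 0.05 was reached by 902 genes, against 771 that would be expected with no difference, and under 0.001 by 22 against 15. The count of 902 depended on single libraries: it was 581 without saline replicate 9, 674 without meth replicate 7, 770 without meth replicate 5 and 838 to 1167 without each of the others. Of the 902, 382 had a higher level in meth (2.48% of genes tested) and 520 a lower one (3.37%). limma-voom called 0 genes. DESeq2 called 5, 1 higher and 4 lower in meth, and leaving out meth replicate 7 left 1 gene called in edgeR. In bulk tissue, fewer cells of a type and less RNA per cell cannot be told apart. The p-values set the difference between groups against the spread between pools, which was estimated over all 16 orbitofrontal libraries.

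Estimates lay close to 0 on both sides, relative to the scaling of the libraries, which itself centres the groups. The median log2 fold change over all genes was -0.001, with 7587 genes above 0 and 7826 below. The middle 90% of estimates ran from -0.24 to 0.19 on the log2 scale. In 248 genes (1.61%) every meth library lay above every saline library, and in 285 (1.85%) every meth library lay below.

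**Figure D1:**
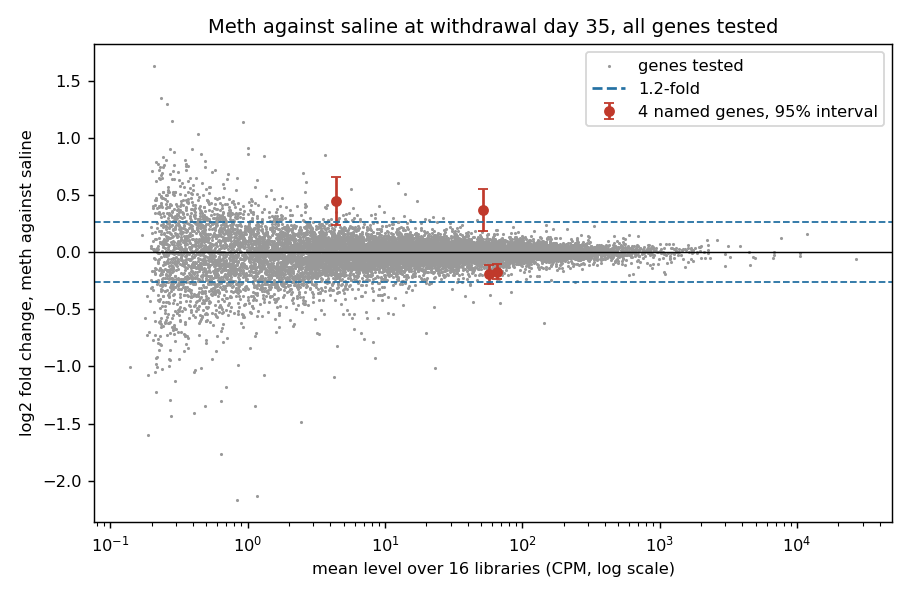
Log2 fold change of meth against saline at day 35 (vertical axis) against mean level over 16 libraries in CPM (horizontal log axis), 1 grey point for each of 15413 genes. Red points are the 4 named genes with 95% intervals, and dashed lines mark 1.2-fold; the scatter narrows as the level rises.

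How large a change the libraries still allow was read from the 95% interval of each gene's fold change. A gene was counted as bounded when both ends of that interval lay inside a stated fold. Of all genes tested, 9516 (61.7%) were bounded within 1.2-fold and 13237 (85.9%) within 1.5-fold. Within 2-fold, 14825 genes (96.2%) were bounded. The genes bounded within 1.2-fold held 90.53 to 91.67% of all gene counts in each of the 8 libraries, and those within 1.5-fold held 99.31 to 99.43%. The intervals are per gene and were not widened for the number of genes. With paired one-sided tests adjusted over all genes, 9723 genes passed at 1.2-fold and 13614 at 1.5-fold. Each one-sided test was held to an adjusted p under 0.05, before adjustment a looser level per side than a 95% interval uses. These counts thus differ from the interval counts in threshold and do not show the effect of adjustment alone.

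The most abundant transcripts were tightly bounded. The 93 genes at 1000 CPM and over took 22.96 to 24.64% of gene counts per library. Their median log2 fold change was 0.000, and no estimate exceeded 1.14-fold. All 93 were bounded within 1.5-fold, and 87 (93.5%) within 1.2-fold. The largest fold left inside an interval, in either direction, had a median of 1.08 and a maximum of 1.43. In none of these genes were the groups separated without overlap. Over all genes tested that share was 3.46%, which would give only a few of 93, so nothing is read from it.

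Genes between 100 and 1000 CPM, of which there were 2002, were bounded about as closely. Their largest allowed fold had a median of 1.08 (quartiles 1.06 and 1.10), and 1905 (95.2%) were bounded within 1.2-fold. Outside 1.5-fold were 9 genes, and 1 gene had an estimate above 1.5-fold. An unadjusted p under 0.05 was found for 70 with a higher and 56 with a lower level in meth. Over all genes tested the shares were 2.48% higher and 3.37% lower.

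The class from 10 to 100 CPM, the largest with 7348 genes, had a median log2 fold change of 0.000 and a median allowed fold of 1.11 (quartiles 1.08 and 1.15). Within 1.2-fold 6443 genes (87.7%) were bounded and within 1.5-fold 7283 (99.1%). An estimate above 1.2-fold was found in 44 genes and above 1.5-fold in 3.

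Below 10 CPM the bounds widened. Among the 4118 genes from 1 to 10 CPM, 1081 (26.3%) were bounded within 1.2-fold and 3575 (86.8%) within 1.5-fold, with a median allowed fold of 1.27. In this class 2237 genes lay below 0 and 1881 above, with a median log2 fold change of -0.013. That median was -0.004 without saline replicate 11 and -0.002 without saline replicates 9 and 11 together. An unadjusted p under 0.05 was reached by 169 genes with a lower and 67 with a higher level in meth, with none called after adjustment. Over all genes tested the shares were 3.37% lower and 2.48% higher. The balance between lower and higher was not tested as such. The same counts were 190 and 112 without saline replicate 11, whose levels in this class had the highest median deviation of the 8 libraries (0.026 on the log2 scale, the others -0.016 to 0.007). Without saline replicate 9 they were 107 and 52, and without both 100 and 81.

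The 1852 genes under 1 CPM held at most 0.10% of gene counts. None was bounded within 1.2-fold, 293 (15.8%) were bounded within 1.5-fold and 1364 (73.7%) within 2-fold. Their median allowed fold was 1.75, and for 1 in 10 of them (the 90th percentile) it passed 2.48. For every gene under 1 CPM the interval thus still allowed a difference of 1.2-fold in at least 1 direction. Many regulatory genes and receptors are transcribed at low levels in brain tissue, and which of them fall in this class cannot be said without gene names.

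**Figure D2:**
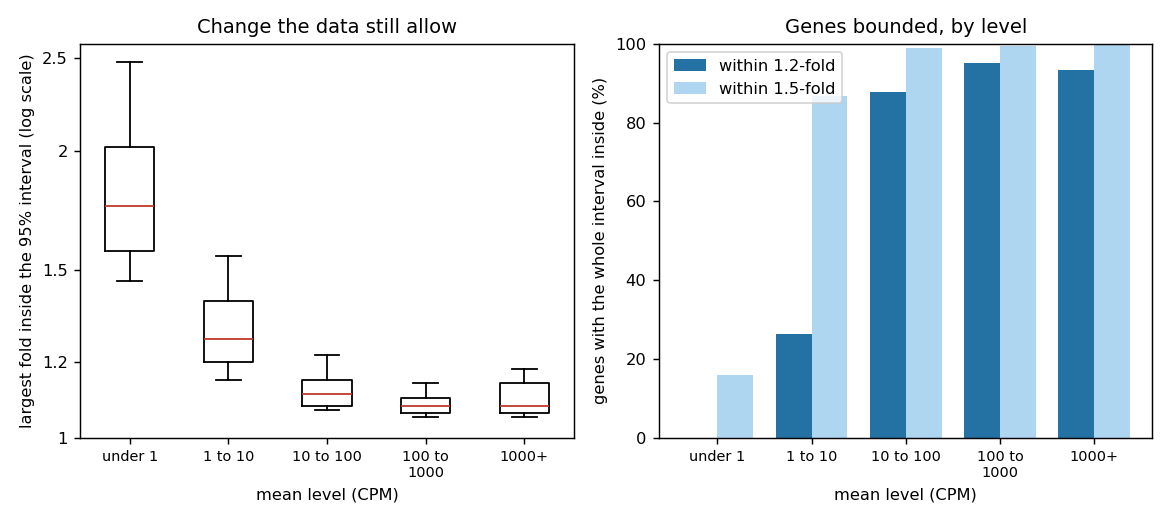
Left, the largest fold change still inside the 95% interval by level class in CPM (log axis), with the median as a red line, quartiles as the box and the 10th and 90th percentiles as whiskers. Right, the share of genes in each class whose whole interval lies within 1.2-fold (dark) or 1.5-fold (light); it rises from 0% and 15.8% under 1 CPM to 93.5% and 100% at 1000 CPM and over.

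Values are given for 4 genes, the 2 on each side of 0 whose edgeR p-values were smallest. As 2 were taken from each side, they need not hold the 4 smallest p-values of all genes. None passed the edgeR threshold, so their values are given as they stand. Picking genes for small day 35 p-values favours groups without overlap and intervals that leave out 0. Over all genes tested the groups did not overlap in 3.46%, so nothing is read from the lack of overlap in these genes. In the direction of higher levels in meth, ENSRNOG00000050292 had 4.20, 5.29, 5.17 and 4.41 CPM in meth replicates 5 to 8 and 3.78, 3.12, 3.33 and 3.71 CPM in saline replicates 9 to 12. Every meth library lay above every saline library. Its meth libraries averaged 4.77 ± 0.543 CPM and its saline libraries 3.48 ± 0.313 CPM (SD, n = 4 each). The log2 fold change was 0.45 (95% interval 0.24 to 0.66, edgeR adjusted p = 0.54).

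ENSRNOG00000008364 was measured at 49.3, 58.3, 61.6 and 57.7 CPM in the meth libraries and 44.0, 41.5, 42.7 and 46.8 CPM in the saline libraries. The groups again did not overlap, and meth replicate 5 lay nearest the saline libraries. Its means were 56.7 ± 5.24 and 43.8 ± 2.28 CPM, a log2 fold change of 0.37 (95% interval 0.19 to 0.56, SE 0.087, edgeR adjusted p = 0.54). DESeq2 called it (DESeq2 adjusted p = 0.045).

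In the direction of lower levels in meth, ENSRNOG00000021153 had the smallest p of all genes tested (unadjusted p = 2.7e-05 from edgeR). Its levels were 61.3, 61.2, 56.8 and 59.9 CPM in the meth libraries and 69.3, 66.2, 68.2 and 65.2 CPM in the saline libraries, with no overlap. The means of 59.8 ± 2.11 and 67.2 ± 1.85 CPM differed by only 1.12-fold (log2 fold change -0.17, 95% interval -0.23 to -0.11, edgeR adjusted p = 0.42). Its difference was the smallest of the 4 genes, and so was its SE of 0.031. DESeq2 called it as well (DESeq2 adjusted p = 0.014).

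ENSRNOG00000000321 stood at 54.0, 53.6, 51.7 and 55.1 CPM in the meth libraries and 59.8, 63.5, 59.1 and 62.7 CPM in the saline libraries. These groups did not overlap either. The means were 53.6 ± 1.42 and 61.3 ± 2.18 CPM, a log2 fold change of -0.19 (95% interval -0.28 to -0.11, SE 0.040, edgeR adjusted p = 0.54), and DESeq2 called the gene (DESeq2 adjusted p = 0.038). Over all alternatives the adjusted p ran from 0.15 to 1 for ENSRNOG00000050292, from 0.02 to 1 for ENSRNOG00000008364, from 0.0051 to 1 for ENSRNOG00000021153 and from 0.02 to 0.97 for ENSRNOG00000000321. Only the DESeq2 fits took any of them past the threshold.

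At day 2 these 4 genes did not share 1 pattern. ENSRNOG00000008364 and ENSRNOG00000021153 had day 2 log2 fold changes of 0.24 (SE 0.089) and -0.13 (SE 0.031), each of the same sign as at day 35 and neither called (edgeR adjusted p = 0.33 and 0.16). Their meth effects at day 35 minus day 2 were 0.13 (SE 0.124) and -0.04 (SE 0.044) on the log2 scale. ENSRNOG00000050292 and ENSRNOG00000000321 had the opposite sign at day 2, with log2 fold changes of -0.32 (SE 0.104) and 0.15 (SE 0.041). For these the difference between days was 0.76 (SE 0.144, edgeR adjusted p = 0.0496) and -0.34 (SE 0.057, edgeR adjusted p = 0.0271). The first held in 3 of 25 alternatives and the second in 14 of 25. With sequencing lane as a replicate block, neither passed (edgeR adjusted p = 0.095 and 0.053). Picking genes for an extreme day 35 contrast favours a large difference between days.

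**Figure D3:**
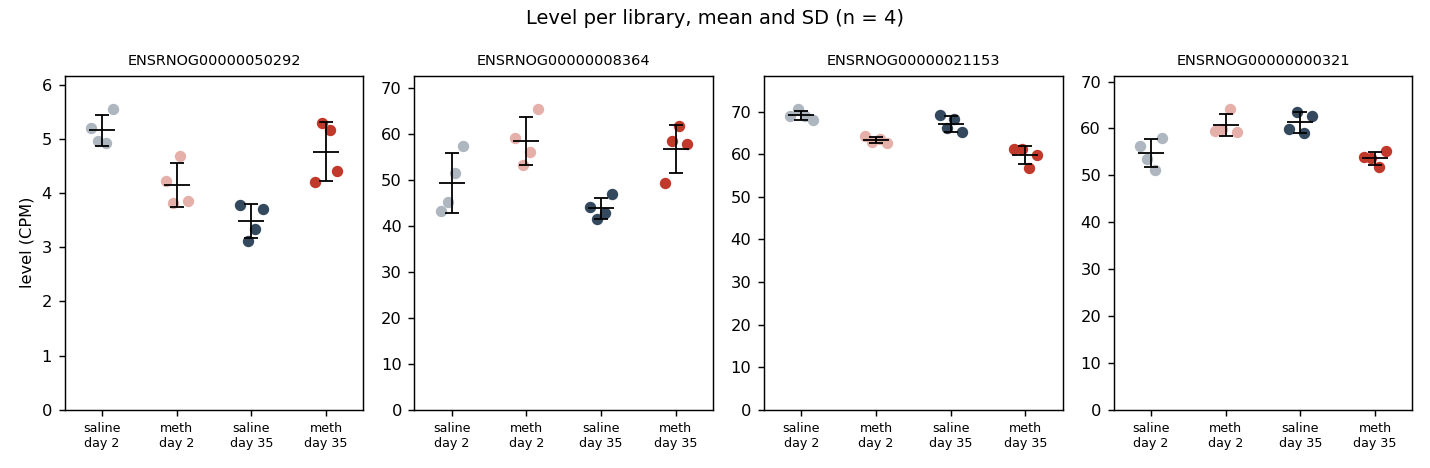
Level in CPM of the 4 named genes in each orbitofrontal library, by drug and withdrawal day, with the mean and SD of 4 libraries in black. At day 35 the meth and saline points of each gene do not overlap, which the choice of genes by their day 35 p-values favours. The order of meth and saline at day 2 is reversed for the first and last gene.

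A set of genes chosen on the day 2 contrast was also followed. In the same fit, 13 genes were higher in meth at day 2 (0.0843% of genes tested) and 4 were lower (0.026%), with a median difference of 1.19-fold. The libraries of the 2 days are separate, and only the estimate of spread is shared. A gene of small spread is more readily called at day 2 and also has a narrower day 35 interval. Tight bounds for this set are thus partly fixed by the choice. At day 35, 16 of these 17 genes (94.1%) were bounded within 1.2-fold and all 17 within 1.5-fold, against 61.7% and 85.9% of all genes. Their median level of 93.6 CPM was above the 17.7 CPM of all genes, and narrower bounds go with higher level. The largest fold left for any of them at day 35 was 1.22.

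For each of the 17 genes the day 35 interval did not reach the estimate made at day 2, which was itself picked for being large. Over all genes tested the same was found for 3732, or 24.2%. The day 35 estimates ran from -0.13 to 0.11 on the log2 scale, and 3 of the 17 had an unadjusted p under 0.05 with none called. A direct test of the difference between days reuses the day 2 libraries that picked these genes, which favours a pass. It passed for 10 of the 17 (all genes tested: 21, or 0.136%). That count was 3 with lane as a replicate block, 13 with DESeq2 and 2 to 6 with 1 day 35 library left out. It was 0 without day 2 saline replicate 14, 1 without day 2 meth replicate 4, 2 without day 2 meth replicate 2 and 3 to 5 without each other day 2 library. The bounds at day 35 moved less, with 14 to 16 of the 17 within 1.2-fold when 1 day 35 library was left out.

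**Figure D4:**
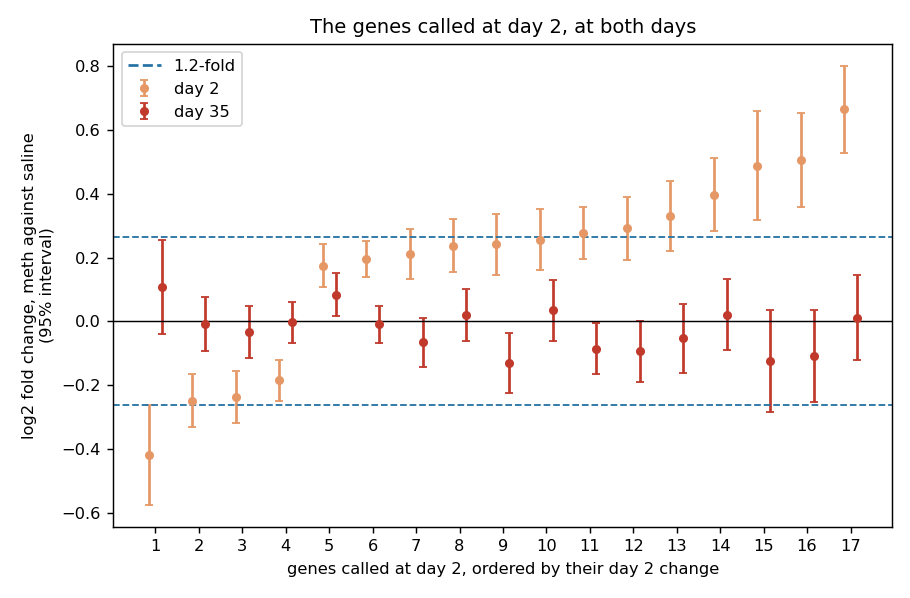
Log2 fold change of meth against saline with its 95% interval at day 2 (orange) and at day 35 (red) for the 17 genes called at day 2, ordered by their day 2 value. The day 35 intervals lie inside the dashed 1.2-fold lines except for 1 gene, which still allows 1.22-fold.

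The day 35 bounds were slightly narrower than those at day 2. The median half-width of the 95% interval was 0.141 on the log2 scale at day 35 and 0.148 at day 2, where libraries were shallower. At day 2, 8960 genes (58.1%) were bounded within 1.2-fold. An unadjusted p under 0.05 was reached by 1612 genes at day 2 and by 902 at day 35.

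The day 35 pools did not all vary alike. The median coefficient of variation between replicates was 5.4% in meth and 6.4% in saline libraries, and 9317 genes (60.4%) varied more in saline, a difference given without a test. Without saline replicate 11 the saline median was 5.5%, and without replicate 9 it was 5.9%. Leaving out any 1 meth library gave 5.0 to 5.1%. Saline replicates 9 and 11 held the highest level of the 8 libraries in 2502 and 2577 genes (16.2% and 16.7%) and the lowest in 2552 and 2546 (16.6% and 16.5%). Each of the other 6 libraries was highest or lowest in 9.73 to 12.7% of genes. These 2 saline libraries also lay at opposite ends of the first principal component of the 8 libraries (-13.2 and 13.5), which held 22.2% of the variance, with the meth libraries between -2.8 and 6.8.

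**Figure D5:**
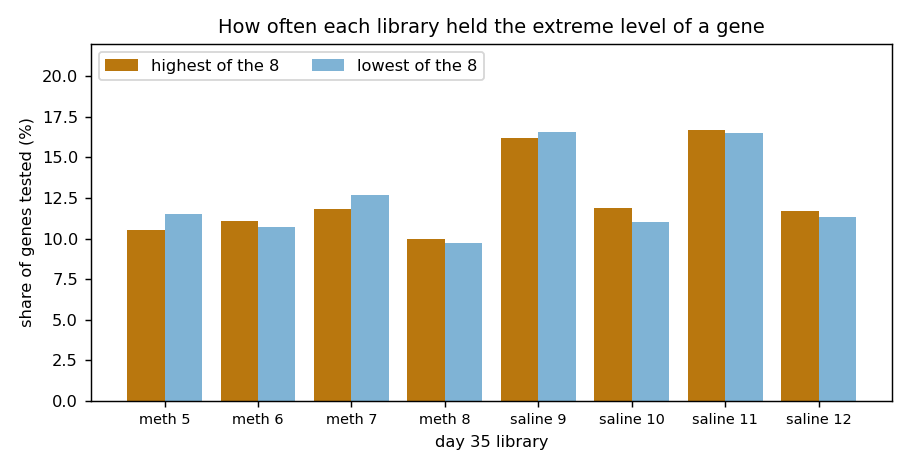
Share of the 15413 genes tested in which each day 35 library held the highest (brown) or lowest (blue) level of the 8, in percent. Saline replicates 9 and 11 stand at 16.2 to 16.7%, and the other libraries between 9.73 and 12.7%.

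Genes that changed over withdrawal in meth rats were also followed. Both contrasts use the same 4 day 35 meth libraries, which ties their signs together. Choosing genes on these libraries also tends to move the day 35 estimates away from 0. Nothing is therefore read from the direction or from the share bounded. Of 213 genes lower at day 35 than at day 2 in meth rats (1.38% of genes tested), 199 had a negative meth effect at day 35, with a median log2 fold change of -0.124. None was called, and 103 (48.4%) were bounded within 1.2-fold. Of 69 genes higher at day 35 in meth rats (0.448%), 65 had a positive effect at day 35, with a median of 0.062, none was called, and 63 (91.3%) were bounded within 1.2-fold. The 213 genes had a median level of 25.3 CPM and the 69 genes of 82.9 CPM. Over all genes tested the median level was 17.7 CPM, and 61.7% were bounded within 1.2-fold.

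At 1 CPM or more, 33 genes had an estimated difference above 1.5-fold, 8 higher and 25 lower in meth, and none was called. The meth and saline libraries did not overlap in 5 of the 33 (15.2%, against 3.46% of all genes tested), but the 33 were picked for their difference, so nothing is read from that share. With the library left out that lowered the estimate most, 28 of the 33 came under 1.5-fold. Against the lower line of 1.2-fold, 28 stayed at it or above and 5 came under it. Without saline replicate 9 alone, 15 came under 1.5-fold and 4 of these under 1.2-fold. That library gave the smallest remaining estimate in 13 of the 33 genes, and any other library in at most 5. Without saline replicate 9, the count of genes with a lower level in meth at an unadjusted p under 0.05 was 312 in place of 520.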

How the data were processed

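Poly(A) RNA-seq libraries of rat orbitofrontal cortex were analysed. The submitters' processing notes name TopHat, HTSeq, limma and build rn4. No source used here gives their versions, the annotation release or the strand setting. The authors deposited unnormalized read counts for each gene and library. The 5 HTSeq summary rows (31.17 to 32.52% of all rows' reads in the day 35 libraries) were left out. Multi-mapping reads are among them, so near-identical gene copies are understated.

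Genes were kept by filterByExpr, scaled by TMM (trimmed mean of M-values) and fitted over all 16 orbitofrontal libraries, 1 mean per group, with glmQLFit (robust) and glmQLFTest in edgeR 4.0.16 (R 4.3.3). Fold changes are relative to TMM scaling, so a shift common to all genes would not be seen. The standard error is the log2 fold change over the square root of F, and 95% intervals use the t distribution. For some genes the test gave a larger p than F implies, so their intervals are narrower than that p would give. The number of such genes was not determined, and they were not left out of the counts of bounded genes. The common biological coefficient of variation was 6.25%. The fit and its intervals were tested on simulated data. Alternatives were median-ratio size factors, 2 other filters, limma-voom 3.58.1, DESeq2 1.42.0, the day 35 libraries alone, a lane block, and each day 35 library left out. Added after seeing the data were thinning to equal depth, DESeq2's filtering tuned to 0.1, and leaving out saline replicates 9 and 11 together. Leaving out each day 2 library was not planned either. Nor were the alternatives for the difference between days, the class medians and the counts at an unadjusted p under 0.05.

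Libraries, lists and tests were chosen with earlier results of these data known. The planned gene lists by name and the other named genes could not be used; level classes took the lists' place, and the named genes are the 2 with the smallest p in each direction, the rule set for that case. No 2 day 35 libraries were identical: within groups, the chi-square of counts over genes with at least 20 reads was 6.08 to 17.01 times its degrees of freedom. Each lane held 1 library of every group, per the labels. Deviations of same-lane meth and saline libraries correlated by -0.051, 0.167, 0.163 and 0.015, and those of other pairs by -0.024 on average. Each group carries 1 index, so index and group cannot be told apart. The central amygdala samples were not analysed here.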

Additional observations from a re-analysis of the deposited data

Results flagged for a closer look

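In 2 of 24 sets of 4 values, 1 library stood apart from the other 3 of its group; chance gives about 1 in 20. In meth replicate 8 the 10 most abundant genes took 10.79% of gene counts, against 9.54 to 9.72% in the other meth libraries. In saline replicate 9, the deepest library, 18348 genes had at least 1 count, against 18042 to 18057 in the other saline libraries, and 17937 at equal depth, within their range of 17933 to 18051.

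The meth effect differed between day 35 and day 2 by a direct test for ENSRNOG00000050292 (0.76 on the log2 scale, edgeR adjusted p = 0.0496; 0.0042 to 0.16 over the alternatives) and for ENSRNOG00000000321 (-0.34, edgeR adjusted p = 0.0271; 0.00014 to 0.15). It also differed for 10 of the 17 genes called at day 2, a count that ran from 0 to 13 over the alternatives. All of these genes were picked for an extreme contrast at 1 of the days, which favours a difference between days.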

How the results depend on the processing

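The count of 0 genes called at day 35 became 5 with DESeq2 and 8 with DESeq2's filtering tuned to 0.1, which gave an adjusted p to 5552 genes; with 1 day 35 library left out it was 0 to 1, the 1 without meth replicate 7. The cause of the difference between tools was not tested. In the other alternatives run it stayed at 0, with lane as a replicate block among them (smallest edgeR adjusted p = 0.35), and that block changed no call at day 35. The genes bounded within 1.2-fold numbered 8545 to 10002 over 19 alternatives, and those within 1.5-fold 12485 to 13732. The lowest of each came without saline replicates 9 and 11 together and the highest with no filter. As shares of the genes tested, 48% and 65.9% were bounded with no filter and 69.2% and 94.6% with a filter at 1 CPM, against 61.7% and 85.9%. With lane as a replicate block 9567 and 13209 genes were bounded, and 16 of the 17 day 2 genes were within 1.2-fold. The 4 named genes kept their direction in all alternatives, and 3 passed with both DESeq2 settings only. With all libraries thinned to equal depth, 8648 of 14742 genes tested (58.7%) were bounded within 1.2-fold. The class median under 1 CPM moved from -0.015 to 0.005 without saline replicate 11.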

Other observations

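Few genes had counts in every library of 1 group and in no library of the other. That rule misses transcripts seen in only some libraries of a group. Of 10992 genes not tested, 6083 had 0 counts in all 8 day 35 libraries. Another 2041 had 10 or more counts over the 8, and the largest count in 1 library was 137. With no filter, 20828 genes were tested and 0 were called. Over all 26405 genes, 2 had counts in all 4 meth and in no saline library and 5 the reverse, with at most 9 counts over the 8 libraries.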
